A study of Mus musculus with 3 samples.

Results

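Genes of mitosis, the spindle and the kinetochore were followed in MC3T3-E1, a line of mouse preosteoblasts from the skull bone of C57BL/6 mice. The set was a list of 43 genes, chosen with earlier results of these data known. Of these, 42 had at least 1 probe set that the array annotation gives to that gene alone, out of 18193 such genes on the array. Ccnb1 had none and is not analysed here. Each gene was read by its brightest probe set, judged by the mean over the arrays, and 41 genes had a mean above the floor of 3.54, the median of all probe sets on the log2 scale. Kif15, a spindle kinesin, lay below the floor on every array and is left out of the counts.

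There were 3 arrays, 1 for each medium, and all cells were from the same line, kept at 37 °C for 3 days in MEM α with 10% fetal bovine serum. The first medium was osteogenic, with the phosphate donor beta-glycerophosphate (10 mM) and ascorbic acid 2-phosphate (150 µM), a stable vitamin C, and also held 0.6% dimethyl sulfoxide (DMSO), a common solvent. The second was the same osteogenic medium without DMSO, and the third was normal medium, with neither supplement. The labels report stronger mineral staining with DMSO, and the arrays ask which RNAs differed by day 3. With 1 array per medium the spread between cultures is unknown, no test was possible, and the medium and the array cannot be told apart. In RNA from a whole culture, more dividing cells and more RNA per dividing cell cannot be told apart either.

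Cells enter mitosis when Cdk1 joins cyclins A and B, after which the Polo and Aurora kinases help build the spindle. Kinetochores, assembled on the CENP-A nucleosomes of the centromere, attach chromosomes to microtubules, and the spindle checkpoint holds the anaphase-promoting complex in check until every chromosome is attached. RNA of these genes is made mainly in the late part of the cell cycle, so the genes are widely read as a group that follows the number of dividing cells. In osteoblast cultures, proliferation usually declines as the cells mature.

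On their brightest probe sets, all 41 genes were higher in osteogenic than in normal medium, by a median of 0.44 on the log2 scale (1.36-fold, range 0.07 to 0.76). With DMSO in the osteogenic medium 38 of the 41 were higher again, by a smaller median of 0.20 (1.14-fold, range -0.13 to 0.38). The largest difference of osteogenic over normal medium was that of Aurka, the kinase that builds the spindle poles, at 1.69-fold, and the largest with DMSO was that of Bub1, a kinase of the spindle checkpoint, at 1.30-fold. None of the genes reached 2-fold in either comparison, as 0.652% of all genes did in the first and 0.599% in the second.

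Against the rest of the array these small differences were uncommon. In osteogenic against normal medium, 31 of the 41 genes were higher by at least 0.3 (1.23-fold), as were 6.64% of all 11350 genes above the floor, and 36.3% of all genes were higher by any amount. In osteogenic medium with against without DMSO, 8 of the 41 were higher by at least 0.3, with a background of 2.76%, and 40.5% of all genes were higher by any amount. None of the 41 was lower by 0.3, against 6.73% of all genes in the first comparison and 5.9% in the second. Among genes within the level range of the 41, from 5.74 to 9.58, the shares higher by at least 0.3 were close to those of all genes, at 6.91% and 2.88%. The median over all genes was 0 in both. Of the 41 genes, 35 stood among the 1000 largest differences of osteogenic over normal medium and 22 among the 1000 largest with DMSO.

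In all, 754 genes were higher and 764 lower by at least 0.3 in osteogenic medium, and 313 were higher and 670 lower with DMSO. The higher share of these was 49.7% and 31.8%. With each array centred on its median it was 38.8% and 45.2%, and the median over all genes moved to -0.04 and 0.04. All 41 mitotic genes were then above 0 in the first comparison and 40 in the second, where the shift also lifts equal values above 0. Across the scaling methods tried, 37 to 40 were above 0 in the second. The share of all genes above 0 was not counted for these scalings, so these counts have no background beside them.

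**Figure D1:**
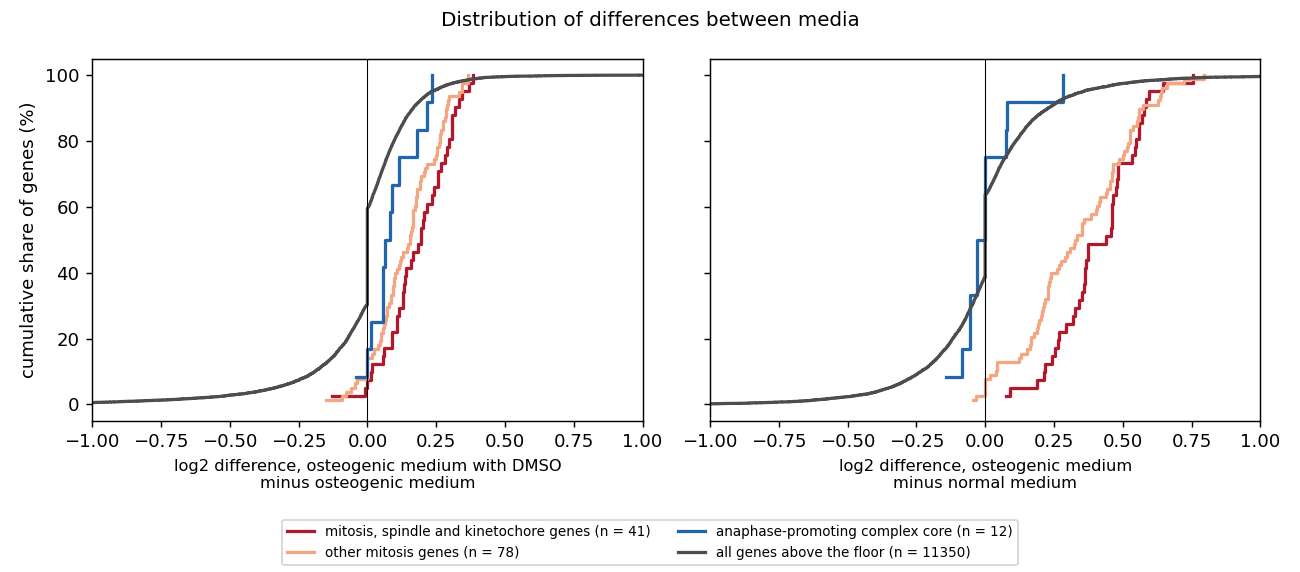
Cumulative share of genes (percent) against the log2 difference between media, for osteogenic medium with DMSO minus osteogenic medium (left) and osteogenic minus normal medium (right). The curve of the 41 mitotic genes lies to the right of that of all 11350 genes in both panels, with medians of 0.20 and 0.44 against 0, and the step at 0 in the curve of all genes is made of equal values.

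The hybridisation spikes, bacterial and phage RNAs added to each sample, were also higher in the osteogenic than in the normal sample, by a median of 0.10 (range 0 to 0.29, 18 probe sets). With DMSO they differed by a median of -0.03. The 3' minus 5' signal of Actb, which grows as RNA degrades, was 0.18 in osteogenic medium with DMSO, 0.20 in osteogenic medium and 0.27 in normal medium. That of Gapdh was -0.056, -0.036 and -0.039 in the same order of media. The part of these shifts in the results was not tested. Deposited values repeat between arrays, and 17.0% of genes above the floor had equal values on all 3.

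Markers of osteoblasts and of other cell types were read on every array. Of 8 osteoblast markers 6 had a probe set, and all 6, Sp7, Alpl, Col1a1, Col1a2, Sparc and Ibsp, were above the floor. Their summed signal was 14.7 on the log2 scale with DMSO, 14.6 in osteogenic medium and 14.5 in normal medium, a sum set mostly by Col1a2, Sparc and Col1a1. In osteogenic over normal medium Ibsp, a matrix protein of bone, was higher by 2.18, Alpl, the alkaline phosphatase, by 1.70, Sp7, an osteoblast transcription factor, by 0.88 and Sparc by 0.11. With over without DMSO Alpl was higher by 0.71, Sp7 by 0.41, Ibsp by 0.38 and Col1a1 by 0.18. Alpl, Sp7 and Ibsp were thus higher in the same media as the mitotic genes. Of 6 macrophage markers Csf1r alone was above the floor on any array, and Ptprc, Adgre1 and Itgam were below it. Of 6 endothelial markers none was above it in either osteogenic medium and Kdr alone in normal medium, at 3.66. No adipocyte marker of the 4 measured was above the floor. Of 6 skeletal muscle markers, Acta1, Ckm and Des were above it, and of 6 chondrocyte markers Col2a1, Sox9 and Matn3 were. In osteogenic over normal medium Col2a1 was higher by 0.85 and Matn3 by 0.67. Chondrocyte markers had a summed signal of 8.95 in both osteogenic media and 8.51 in normal medium, and those of muscle 6.69, 6.67 and 6.68 in the same order of media. The part of such cells in the results was not tested.

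The late cell cycle genes share elements in their promoters. The cell cycle genes homology region, or CHR, has the core TTTGAA and is bound by complexes built on the MuvB proteins, with B-Myb and FoxM1 as activating partners. The sequence CCAAT is bound by the factor NF-Y. Both were searched on both strands in RefSeq windows (GRCm38.p6) from 250 bases before to 50 bases after the transcription start. A window was on file for 36 of the 41 genes. TTTGAA was found in 25 of the 36 (69.4%), in 13.8% of the other genes above the floor and in 20.2% of all other genes with a window. Within 50 bases of the start on either side the shares were 61.1% (22 of 36) and 3.55% of other genes above the floor. CCAAT was found in 28 of the 36 (77.8%) and in 42.6% of other genes above the floor, and both were found in 23 of the 36 and in 5.34%. CCAAT was also common in lists described below, in 18 of 26 DNA replication genes (69.2%) and 39 of 63 other mitosis genes (61.9%). It was thus not particular to this set. A match is a run of letters and not a measured binding site.

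**Figure D2:**
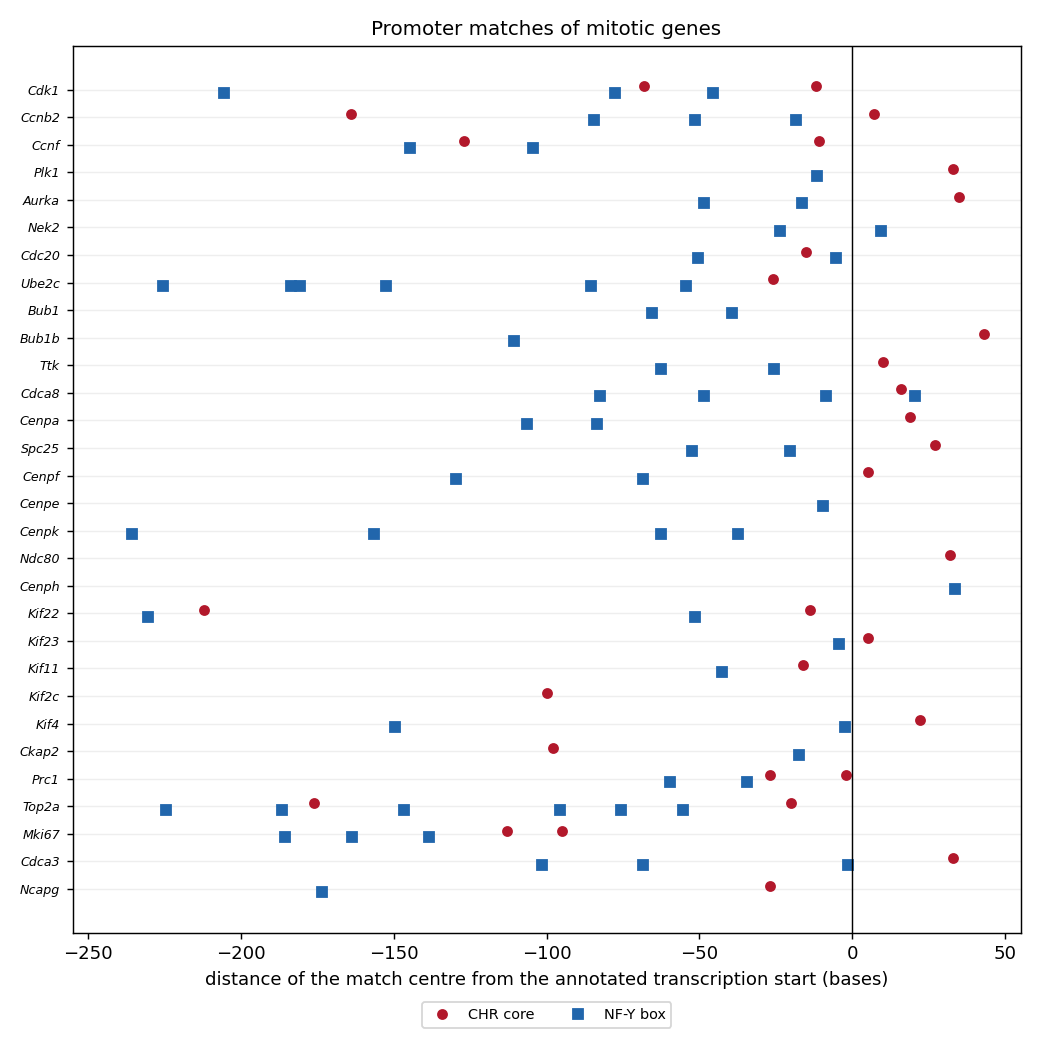
Positions of CHR cores (circles) and NF-Y boxes (squares) in the promoter windows of the 30 mitotic genes with at least 1 match, as the distance in bases from the annotated transcription start to the centre of the match. Windows of a gene with several annotated starts are drawn on 1 line, and most circles lie within 50 bases of the start, with squares mainly before it.

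The windows of 6 genes are printed because these genes had the largest differences or illustrate the presence and absence of the elements. Capitals mark every match to TTTGAA or CCAAT on either strand, and no 2 matches overlap in these windows, although they do in that of Cdca8. Each window holds the sequence before the gene, its start and the first transcribed bases, on the gene's own strand. They lie at chr2:172370521-172370820, minus strand (Aurka), chr2:127831810-127832109, minus strand (Bub1), chr10:69352863-69353162, minus strand (Cdk1), chr7:122159185-122159484, plus strand (Plk1), chr5:30666636-30666935, plus strand (Cenpa) and chr6:66534971-66535270, plus strand (Mad2l1).
Aurka promoter: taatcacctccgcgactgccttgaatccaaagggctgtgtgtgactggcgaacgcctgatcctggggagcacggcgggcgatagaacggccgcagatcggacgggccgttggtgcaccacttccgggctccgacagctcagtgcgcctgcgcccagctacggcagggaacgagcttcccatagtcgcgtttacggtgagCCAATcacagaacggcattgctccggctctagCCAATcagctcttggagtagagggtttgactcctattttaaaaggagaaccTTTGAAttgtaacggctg
Bub1 promoter: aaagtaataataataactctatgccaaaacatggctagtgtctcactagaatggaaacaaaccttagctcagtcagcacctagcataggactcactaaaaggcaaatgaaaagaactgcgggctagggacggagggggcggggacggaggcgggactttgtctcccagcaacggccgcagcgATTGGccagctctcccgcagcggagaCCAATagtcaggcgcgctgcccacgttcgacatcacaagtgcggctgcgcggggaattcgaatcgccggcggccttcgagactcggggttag
Cdk1 promoter: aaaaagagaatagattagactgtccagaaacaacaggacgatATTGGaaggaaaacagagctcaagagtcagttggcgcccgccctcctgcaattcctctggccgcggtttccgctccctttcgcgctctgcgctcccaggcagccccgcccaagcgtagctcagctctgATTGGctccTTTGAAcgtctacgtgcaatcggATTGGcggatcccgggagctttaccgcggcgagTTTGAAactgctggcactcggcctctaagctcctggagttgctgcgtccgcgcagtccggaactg
Plk1 promoter: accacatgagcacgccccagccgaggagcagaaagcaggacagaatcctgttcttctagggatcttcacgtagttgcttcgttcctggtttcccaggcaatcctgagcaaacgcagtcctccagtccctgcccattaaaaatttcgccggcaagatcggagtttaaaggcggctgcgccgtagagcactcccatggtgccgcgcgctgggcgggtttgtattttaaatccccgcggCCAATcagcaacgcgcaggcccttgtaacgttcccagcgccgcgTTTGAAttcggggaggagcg
Cenpa promoter: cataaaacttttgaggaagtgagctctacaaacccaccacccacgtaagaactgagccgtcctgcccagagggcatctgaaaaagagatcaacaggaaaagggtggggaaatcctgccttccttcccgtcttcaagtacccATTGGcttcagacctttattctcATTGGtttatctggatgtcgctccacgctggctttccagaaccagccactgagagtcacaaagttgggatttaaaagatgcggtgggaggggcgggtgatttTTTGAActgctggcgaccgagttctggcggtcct
Mad2l1 promoter: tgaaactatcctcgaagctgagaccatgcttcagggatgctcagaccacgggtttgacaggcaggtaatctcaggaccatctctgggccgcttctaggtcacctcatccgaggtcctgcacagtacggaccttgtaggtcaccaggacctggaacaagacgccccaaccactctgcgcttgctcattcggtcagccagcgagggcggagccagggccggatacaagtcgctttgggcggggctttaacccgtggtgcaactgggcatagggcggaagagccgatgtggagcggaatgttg

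The arrangement differed from gene to gene. The TTTGAA of Aurka began at base 33 of the transcript, that of Plk1 at base 31 and that of Cenpa at base 17, each preceded by CCAAT. Cdk1 had a TTTGAA at 71 and another at 15 bases before the start, and 3 CCAAT matches on the opposite strand. Bub1 had a pair of CCAAT matches and no TTTGAA, and Mad2l1 had neither. Bub1 and Mad2l1 had the largest differences with DMSO, and a link between elements and differences was not tested. The 25 genes with TTTGAA had a median difference of 0.46 in osteogenic over normal medium and 0.18 with over without DMSO. The 11 genes without it had medians of 0.37 and 0.14. For osteogenic medium with DMSO over normal medium the order was the other way, with medians of 0.5886 with TTTGAA and 0.5922 without it. The difference between these sets was not tested.

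Cyclins and Cdk1 set the time of mitotic entry. Cdk1, the kinase itself, had a log2 signal of 9.72 in osteogenic medium with DMSO, 9.38 in osteogenic medium and 8.89 in normal medium. Ccnf, cyclin F, a ubiquitin ligase subunit that limits other cell cycle proteins, had 6.39 in osteogenic medium with DMSO, 6.13 in osteogenic medium and 5.57 in normal medium. Both were highest with DMSO and lowest in normal medium, and Ccnf differed by 0.56 between osteogenic and normal medium while Cdk1 differed by 0.48. Cyclin A2, the product of Ccna2, acts in both S phase and mitosis. Its gene had 9.18 in osteogenic medium with DMSO, 8.90 in osteogenic medium and 8.61 in normal medium, and its other probe set gave differences of 0.40 for osteogenic over normal medium and 0.42 with over without DMSO. Ccnb2, a B-type cyclin, had 8.57 in osteogenic medium with DMSO, 8.37 in osteogenic medium and 8.05 in normal medium, differences of 0.33 and 0.20. Thus 3 of the 5 measured genes of this class were higher by at least 0.3 in osteogenic medium and 1, Cdk1, with DMSO. The shares of all genes were 6.64% and 2.76%. Foxm1, the transcription factor that activates many genes of the set, had 5.77 in osteogenic medium with DMSO, 5.77 in osteogenic medium and 5.68 in normal medium. Its value was equal in both osteogenic media, and of its other probe sets above the floor those at levels near 5.64 gave 0.39 and 0.29 for osteogenic over normal medium and 0.10 and 0.34 with over without DMSO. The probe sets of Foxm1 thus did not settle on 1 size.

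Among the mitotic kinases, Aurka stood apart in the first comparison. It had 7.91 in osteogenic medium with DMSO, 7.67 in osteogenic medium and 6.91 in normal medium. Its difference of 0.76 between osteogenic and normal medium ranked 107 of 11350 genes, and that of 0.24 with DMSO ranked 541. Its other probe set lay below the floor. Plk1, the Polo-like kinase that drives mitotic entry and spindle assembly, had 7.97 in osteogenic medium with DMSO, 7.67 in osteogenic medium and 7.21 in normal medium, with differences of 0.46 and 0.31. Nek2, a kinase of centrosome separation, had 7.46 in osteogenic medium with DMSO, 7.44 in osteogenic medium and 6.87 in normal medium. Nek2 thus differed by 0.58 in osteogenic over normal medium and by 0.02 with DMSO on its brightest probe set, and its next brightest gave 0.50 and 0.19. Melk, a kinase of dividing and progenitor cells, had 8.53 in osteogenic medium with DMSO, 8.28 in osteogenic medium and 8.01 in normal medium, differences of 0.26 in both comparisons. So 3 of these 4 kinases passed 0.3 in osteogenic medium and 1, Plk1, with DMSO, against 6.64% and 2.76% of all genes.

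The 2 largest differences with DMSO were those of spindle checkpoint genes, here grouped with genes of the anaphase-promoting complex. Bub1 had 8.25 in osteogenic medium with DMSO, 7.87 in osteogenic medium and 7.22 in normal medium. It was 1.57-fold higher in osteogenic than in normal medium and 1.30-fold higher with than without DMSO, although its other, dimmer probe set gave log2 differences of 0.20 and 0.00. Mad2l1, the Mad2 protein that blocks Cdc20, had 9.37 in osteogenic medium with DMSO, 9.0 in osteogenic medium and 8.64 in normal medium, and its differences of 0.36 and 0.37 were of near equal size. Ube2c, the ubiquitin-conjugating enzyme that works with the complex, had 9.43 in osteogenic medium with DMSO, 9.10 in osteogenic medium and 8.85 in normal medium. For Ube2c the difference with DMSO, 0.33, was above that of osteogenic over normal medium, 0.25. Cdc20, which activates the complex at anaphase, had 9.45 in osteogenic medium with DMSO, 9.32 in osteogenic medium and 8.86 in normal medium. Ttk, the kinase also called Mps1, had 6.81 in osteogenic medium with DMSO, 6.75 in osteogenic medium and 6.21 in normal medium, and Bub1b, which encodes BubR1, had 7.40 in osteogenic medium with DMSO, 7.39 in osteogenic medium and 7.02 in normal medium. Ttk and Bub1b were higher in osteogenic than in normal medium by 0.54 and 0.37, while with DMSO they differed by 0.06 and 0.01. In the class, 5 of 6 passed 0.3 in osteogenic medium and 3 of 6 with DMSO, against 6.64% and 2.76% of all genes.

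**Figure D3:**
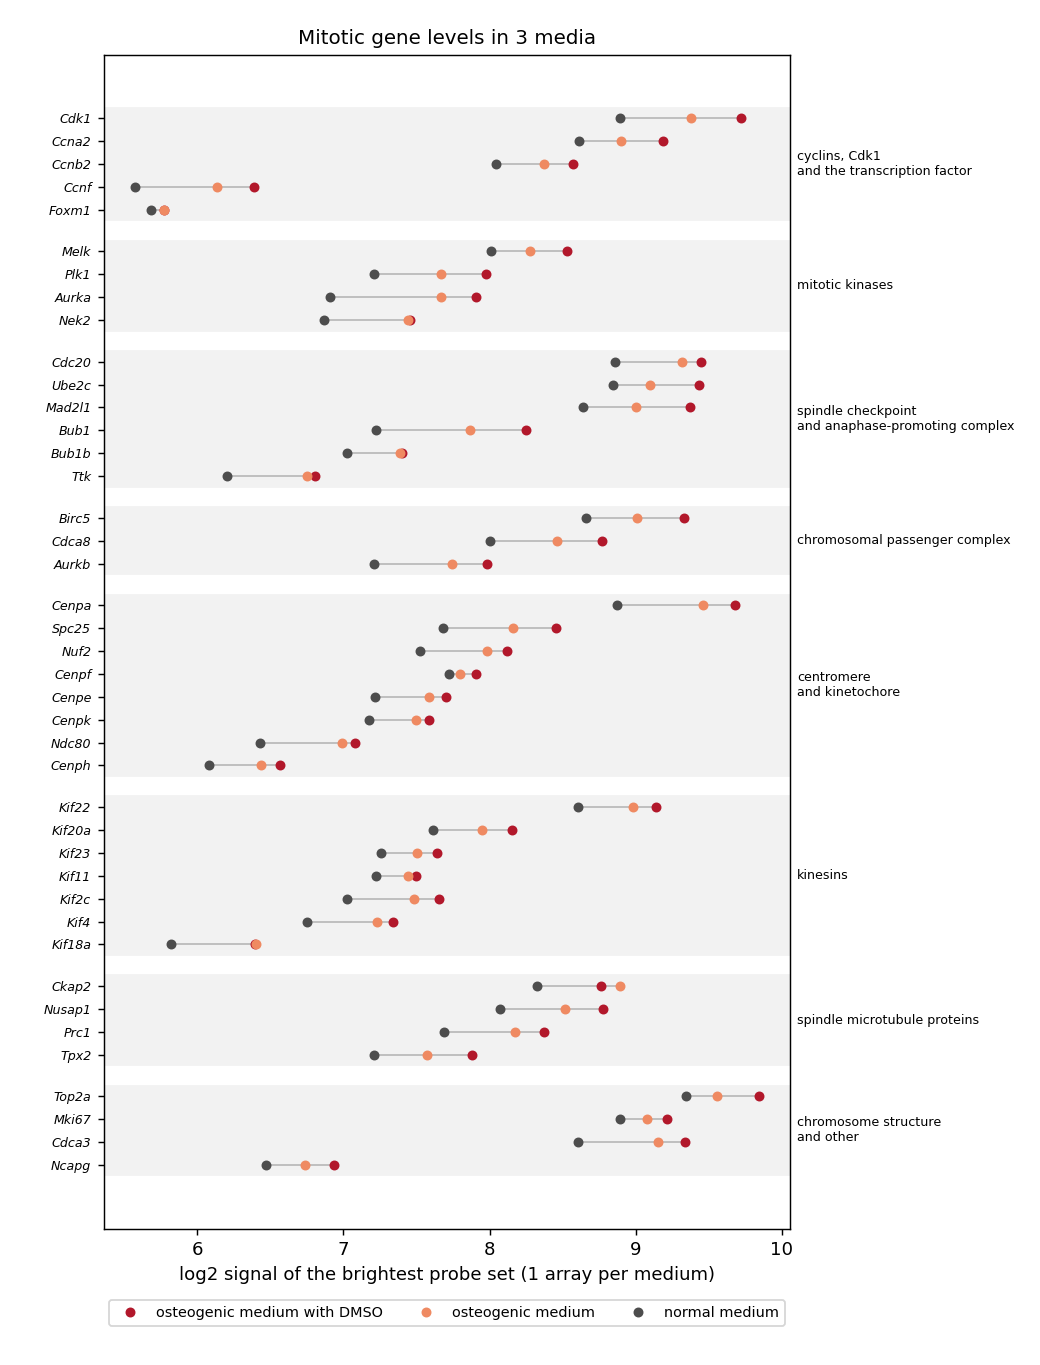
Log2 signal of the brightest probe set of the 41 mitotic genes above the floor, grouped by role, with 1 point per medium and a grey line over the range. In most rows the point with DMSO is highest, followed by osteogenic and then normal medium, and Ckap2 is highest without DMSO (8.89 against 8.77 with it).

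The 3 genes of the set that encode members of the chromosomal passenger complex, which corrects wrong attachments and guides cytokinesis, were higher in both comparisons. Birc5, survivin, had 9.33 in osteogenic medium with DMSO, 9.01 in osteogenic medium and 8.66 in normal medium. Cdca8, borealin, had 8.77 in osteogenic medium with DMSO, 8.46 in osteogenic medium and 8.0 in normal medium. Aurkb, the kinase of the complex, had 7.98 in osteogenic medium with DMSO, 7.75 in osteogenic medium and 7.21 in normal medium. The medians of the 3 were 0.46 in osteogenic over normal medium and 0.31 with over without DMSO, the second being the highest class median in that comparison. Incenp, the scaffold of the complex, is outside the set and was higher by 0.56 and 0.21. Other probe sets of Cdca8 gave 0.34 and 0.43 in the first comparison and 0.22 and 0.35 in the second, and the other of Aurkb gave 0.51 and 0.25.

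In the centromere and kinetochore class, 7 of 8 genes passed 0.3 in osteogenic over normal medium, against 6.64% of all genes. None did with DMSO, where few of all genes did (2.76%). Cenpa, the histone H3 variant that marks the centromere, had 9.68 in osteogenic medium with DMSO, 9.46 in osteogenic medium and 8.87 in normal medium. The genes of the Ndc80 complex, which grips the microtubule, were followed through Ndc80, Nuf2 and Spc25. Ndc80 had 7.08 in osteogenic medium with DMSO, 6.99 in osteogenic medium and 6.43 in normal medium, and Nuf2 had 8.12 in osteogenic medium with DMSO, 7.98 in osteogenic medium and 7.53 in normal medium. Spc25 had 8.46 in osteogenic medium with DMSO, 8.16 in osteogenic medium and 7.68 in normal medium. The 3 were higher by 0.56, 0.46 and 0.48 in osteogenic medium, and with DMSO by 0.09, 0.14 and 0.30, where the value of Spc25 was just under 0.3. Cenpe, a kinesin of the kinetochore, and Cenph and Cenpk, of the inner kinetochore, differed by 0.32 to 0.37 in osteogenic medium and by 0.09 to 0.13 with DMSO. Cenpf, a large kinetochore protein, was the exception, with 7.91 in osteogenic medium with DMSO, 7.80 in osteogenic medium and 7.72 in normal medium. Its differences were 0.07 and 0.11, and its other probe sets gave -0.23 and 0.00 at a mean level of 5.19, and 0.19 and 0.18 at 3.79. Second probe sets gave smaller values than the brightest for Cenpa (0.28 and 0.00) and Cenpe (0.06 and 0.00), and that of Spc25, at the edge of the floor, was equal on all 3 arrays.

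The kinesins, motor proteins that act on spindle microtubules, were higher in osteogenic than in normal medium in all 7 measured cases. Their median was 0.38, and 5 passed 0.3, against 6.64% of all genes. Kif18a, which shortens kinetochore microtubules, had 6.39 in osteogenic medium with DMSO, 6.40 in osteogenic medium and 5.82 in normal medium. It differed by 0.58 in the first comparison and by -0.01 in the second, where it turned to 0.03 with centred arrays and 0.01 with quantile normalization. Kif22, a kinesin that binds chromosome arms, had 9.14 in osteogenic medium with DMSO, 8.98 in osteogenic medium and 8.60 in normal medium. Kif2c, which removes wrong attachments, had 7.65 in osteogenic medium with DMSO, 7.49 in osteogenic medium and 7.02 in normal medium. The brightest probe sets of Kif22 and Kif2c end in _x_at, which marks probes shared with other sequences. They differed by 0.38 and 0.46 in osteogenic over normal medium and by 0.16 and 0.17 with over without DMSO. Their next brightest gave larger values, at 0.54 and 0.65 in osteogenic over normal medium and 0.32 and 0.25 with over without DMSO. Kif4, which organises the central spindle, was higher by 0.48 and 0.11, and Kif20a, needed for cytokinesis, by 0.34 and 0.21. Kif23, of the central spindle, and Kif11, which pushes spindle poles apart, differed by 0.24 and 0.22 in the first comparison and by 0.14 and 0.06 in the second. Dimmer probe sets of both gave larger values. Those of Kif11 gave 0.38 and 0.45 in the first comparison and 0.25 and 0.16 in the second, and that of Kif23 gave 0.51 and 0.19. On its brightest probe set no kinesin passed 0.3 with DMSO, where few of all genes did (2.76%). Both other probe sets of Kif22 passed it (0.32 and 0.37).

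The 4 spindle microtubule proteins passed 0.3 in osteogenic over normal medium, against 6.64% of all genes, with a median of 0.46. Tpx2, which activates Aurora A on the spindle, had 7.88 in osteogenic medium with DMSO, 7.57 in osteogenic medium and 7.21 in normal medium. Its differences were 0.36 and 0.31, but its other probe sets above the floor did not pass 0.3. They gave 0.23, 0.00 and 0.00 in osteogenic over normal medium and 0.17, 0.00 and 0.00 with over without DMSO. Nusap1, which bundles microtubules, had 8.78 in osteogenic medium with DMSO, 8.51 in osteogenic medium and 8.07 in normal medium, and Prc1, which crosslinks the central spindle, had 8.38 in osteogenic medium with DMSO, 8.17 in osteogenic medium and 7.69 in normal medium. On their brightest probe sets these 3 were highest with DMSO. Ckap2, a protein of spindle microtubules, had 8.77 in osteogenic medium with DMSO, 8.89 in osteogenic medium and 8.32 in normal medium. Ckap2 differed by 0.57 in osteogenic over normal medium and by -0.13 with DMSO, the lowest value of the 41.

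Genes of chromosome structure differed least in osteogenic medium. Top2a, the topoisomerase that untangles sister chromatids, had 9.85 in osteogenic medium with DMSO, 9.56 in osteogenic medium and 9.34 in normal medium and the highest mean level of the set. Mki67, which encodes the Ki-67 antigen used to mark dividing cells, had 9.21 in osteogenic medium with DMSO, 9.08 in osteogenic medium and 8.89 in normal medium. Ncapg, a condensin subunit, had 6.93 in osteogenic medium with DMSO, 6.74 in osteogenic medium and 6.47 in normal medium. The 3 differed by 0.21, 0.19 and 0.27 in osteogenic over normal medium and by 0.29, 0.13 and 0.20 with over without DMSO, and a dimmer probe set of Top2a gave 0.38 and 0.00. Cdca3, a regulator of mitotic entry, had larger values, with 9.34 in osteogenic medium with DMSO, 9.16 in osteogenic medium and 8.61 in normal medium, differences of 0.55 and 0.18.

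**Figure D4:**
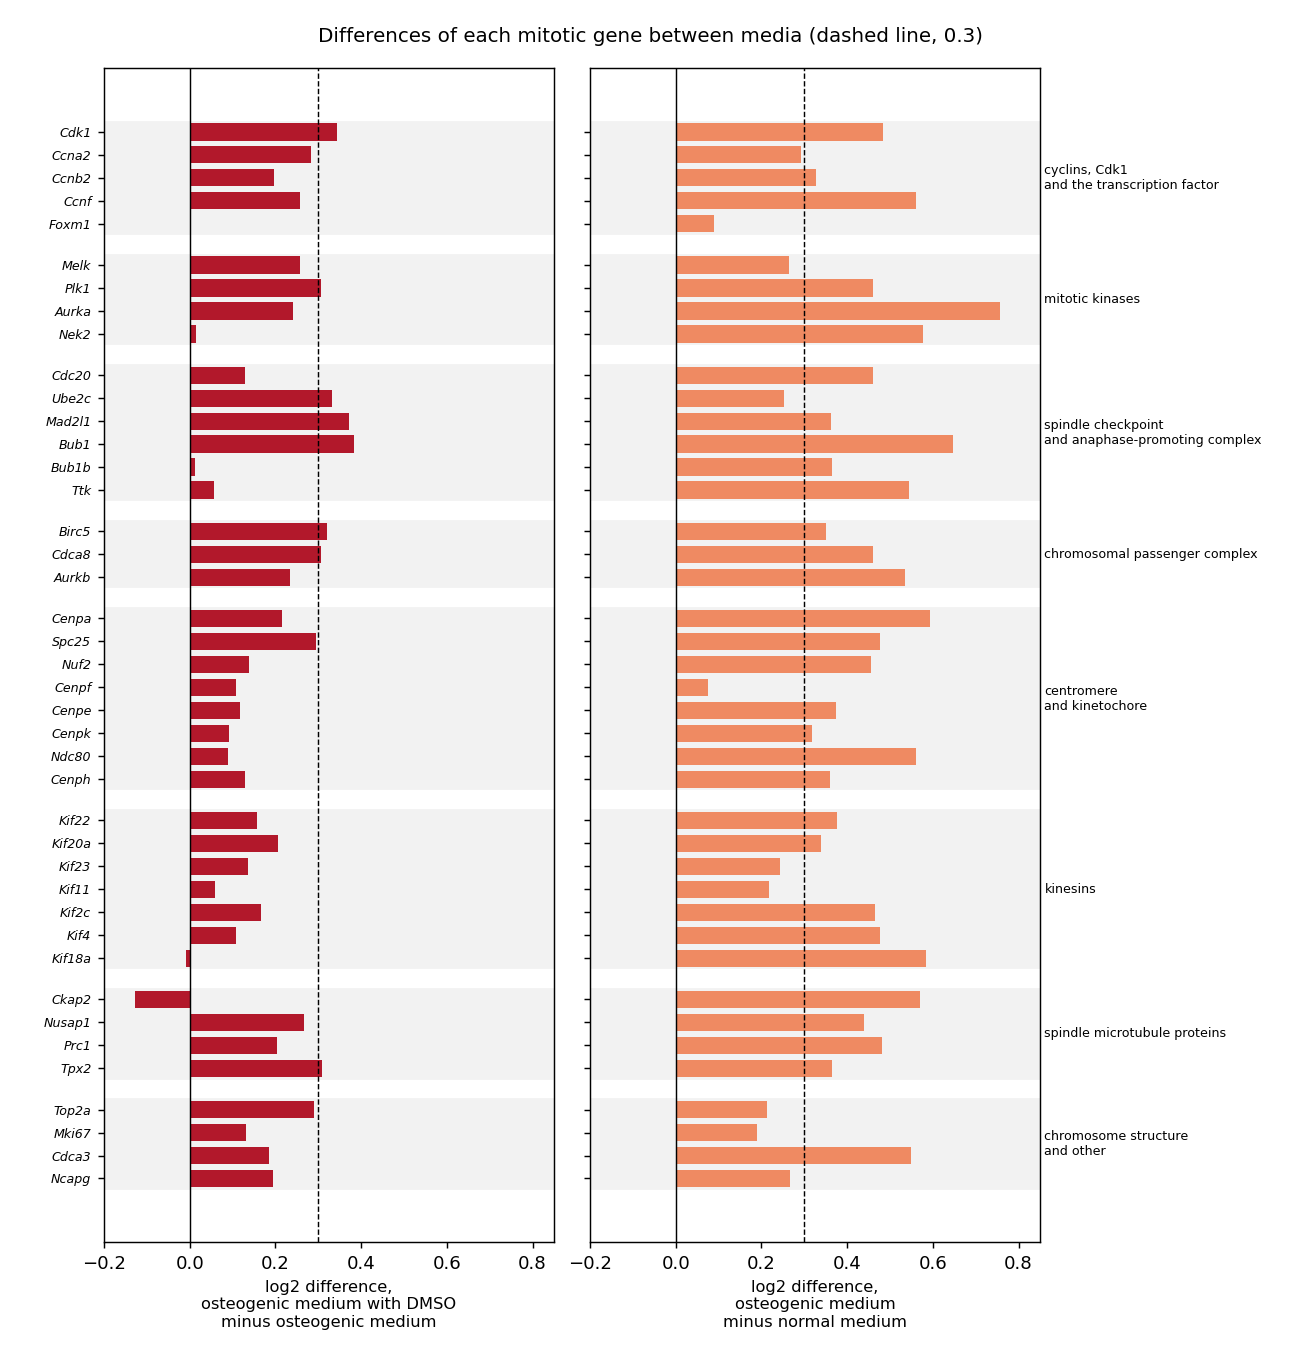
Log2 differences of each of the 41 mitotic genes, for osteogenic medium with DMSO minus osteogenic medium (left) and osteogenic minus normal medium (right), with a dashed line at 0.3. On the right 31 bars pass the line and all are above 0, and on the left 8 pass it and those of Ckap2 and Kif18a are below 0.

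Because the osteogenic array without DMSO enters both comparisons with opposite signs, their values are not independent. Osteogenic medium with DMSO was also set directly against normal medium. All 41 genes were higher, by a median of 0.59 (1.5-fold, range 0.09 to 1.03), and 38 passed 0.3, as did 8.94% of all genes, while 40.7% of all genes were higher by any amount. In this comparison Bub1 was 2.04-fold higher, and was the 1 gene of the set past 2-fold. Of all genes, 1.96% differed at least 2-fold in either direction. Aurka followed at 1.996-fold, then Cdk1 at 1.78-fold, Ccnf at 1.76-fold, Cenpa at 1.75-fold and Spc25 at 1.71-fold. The spikes differed by a median of 0.06 in it.

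Other probe sets of the same genes gave a second reading on the same arrays. There were 31 of them above the floor, for 21 genes, and 16 below it. Of the 31, 27 were higher in osteogenic than in normal medium, 3 were equal and 1, of Cenpf, was lower, with a median of 0.38. With DMSO 20 were higher, 10 equal and 1, of Cdc20, lower, with a median of 0.17. On the brightest probe sets 36.3% and 40.5% of all genes were higher by any amount. Of the 31, 19 were higher by at least 0.3 in the first comparison and 6 with DMSO. Among the second brightest probe sets of all genes the shares were 5.80% and 2.71%. The brightest and second brightest probe sets of 5273 genes differed with an SD of 0.19 in the first comparison and 0.16 in the second. That spread covers probes and transcript forms and does not cover variation from culture to culture. A single value such as the 0.24 of Aurka with DMSO is not much larger than that SD. The brightest probe set ended in _x_at for 4 genes (Cdc20, Aurkb, Kif22 and Kif2c) and in _s_at for 3 (Prc1, Nek2 and Cdca8), names given to probes that match more than 1 sequence or transcript.

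**Figure D5:**
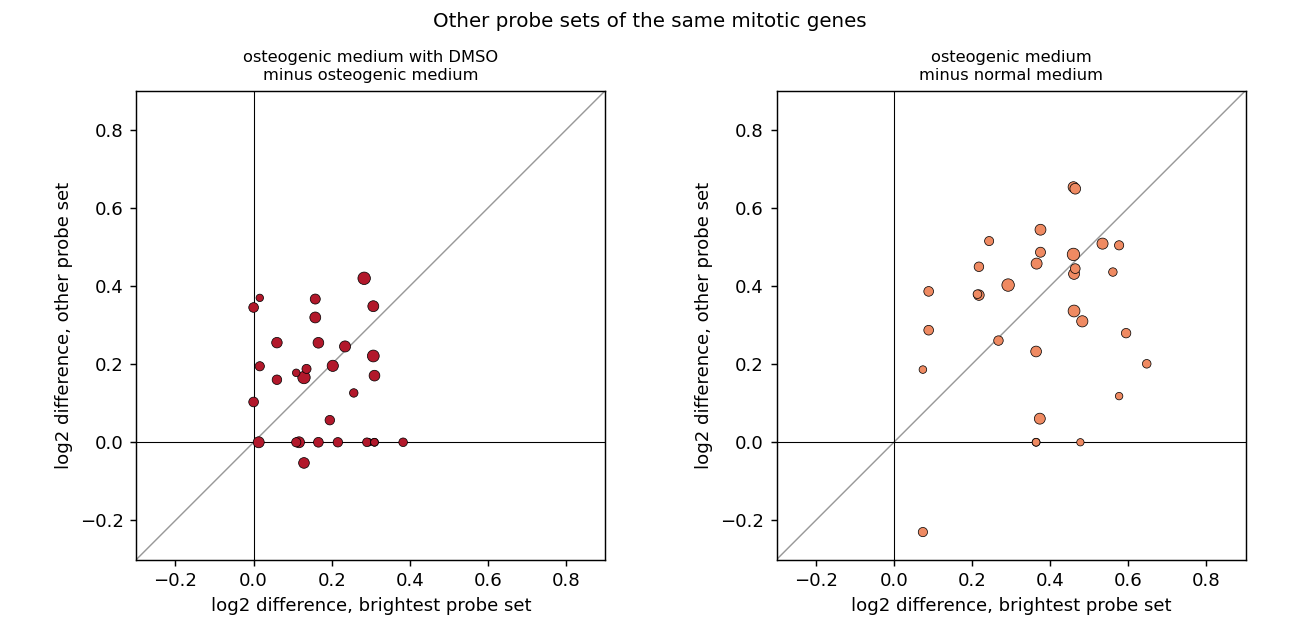
Log2 difference of each other probe set above the floor against that of the brightest probe set of the same mitotic gene, for osteogenic medium with DMSO minus osteogenic medium (left) and osteogenic minus normal medium (right), with larger points for brighter probe sets and a grey line of equality. On the right 27 of 31 points lie above 0, and on the left 20 do and 10 lie at exactly 0.

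Further mitosis genes outside the set went the same way, but their list was also chosen with earlier results of these data known. Of its 81 genes, 78 were above the floor, and 72 were higher in osteogenic than in normal medium, as were 36.3% of all genes, with a median of 0.33. With DMSO 67 were higher, as were 40.5% of all genes, with a median of 0.16. The largest differences in osteogenic medium were those of Gtse1 (0.79), a microtubule protein of late cell cycle that restrains p53, Depdc1a (0.72), Cenpw (0.66), a centromere protein, and Trip13 (0.64), which takes the checkpoint complex apart. With DMSO they were those of Mybl2 (0.37), the B-Myb factor named above, Cdc25c (0.36), the phosphatase that activates Cdk1, Oip5 (0.34), which helps to load CENP-A, and Cenpi (0.34). Gtse1 itself had equal values of 6.08 in both osteogenic media, against 5.28 in normal medium.

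The core subunits of the anaphase-promoting complex, which unlike Cdc20 and Ube2c are made through most of the cell cycle, had medians of -0.01 in osteogenic over normal medium and 0.07 with over without DMSO. All 12 were above the floor, 3 were higher and 6 lower in the first comparison, against 36.3% and 38.5% of all genes, and 10 were higher and 1 lower in the second, against 40.5% and 30.2%. The largest values were those of Cdc26 (0.28), Cdc23 (-0.14), Anapc10 (-0.08) and Anapc2 (0.08) in the first, and Anapc5 (0.23), Anapc10 (0.22), Anapc1 (0.18) and Anapc11 (0.11) in the second. None passed 0.3. Genes of DNA replication, which act earlier in the cycle, had medians of 0.36 and 0.18 over 31 genes, near those of the mitotic set. Their largest differences in osteogenic over normal medium were those of Orc1 (0.64), of the origin recognition complex, Rpa2 (0.63), which binds single-stranded DNA, Cdc6 (0.59), which loads the replicative helicase, and Mcm10 (0.58). With DMSO they were those of Fen1 (0.35), a flap endonuclease, Chaf1b (0.30), a chromatin assembly factor, and the helicase subunits Mcm4 (0.28) and Mcm5 (0.28). The differences between these lists were not tested.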

How the data were processed

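RNA of 3 cultures, 1 per medium, was labelled with a 3' IVT kit and hybridised to Affymetrix mouse genome arrays, per the labels. The deposited values are taken as log2 signals from their range of 0.652 to 13.4. How the authors summarised and normalized the probes is not stated in the labels. Median signals were 3.54, 3.58 and 3.54 in osteogenic medium with DMSO, osteogenic medium and normal medium.

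Of 45101 probe sets, 34958 had 1 gene symbol and 932 several in the platform annotation. The brightest probe set by mean over the arrays stood for a gene. Values under the floor, the 50th percentile, were raised to it, and counts used genes whose mean was above it. With 1 array per medium there was no test, and 0.3 on the log2 scale served as a descriptive threshold. Members and lists were chosen with earlier results of these data known. All members are accounted for. Of other lists, the 4 genes with the largest difference in each main comparison are named. The alternatives were other floors, probe sets, scalings and thresholds. The steps were run on simulated data with planted differences larger than most of those of the mitotic genes. That run does not test calls of the size seen here. The steps ran in Python 3.11.15 (numpy 2.4.6; pandas 2.3.3; figures with matplotlib 3.10.9), with cyclic loess from limma 3.58.1 in R 4.3.3.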

Additional observations from a re-analysis of the deposited data

How the results depend on the processing

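The median differences of the mitotic genes kept their sign under every alternative. They ranged from 0.35 to 0.47 in osteogenic over normal medium, from 0.13 to 0.24 with over without DMSO, and from 0.50 to 0.61 for osteogenic medium with DMSO over normal medium, lowest with the mean of all probe sets. Read through the second brightest probe set, which 21 genes have above the floor, 14, 2 and 16 genes passed 0.3 in these comparisons (5.80%, 2.71% and 8.52% of all genes). At a threshold of 0.2, 19 genes passed with DMSO (7.19% of all genes), and at 0.5, 11 passed in osteogenic over normal medium (2.57%) and 0 with DMSO (0.493%). With DMSO 5 genes passed 0.3 under cyclic loess (2.48%), 7 under quantile normalization (2.89%) and 12 with arrays centred on their medians (4.09%). Leaving out probe sets ending in _x_at or _s_at was chosen after seeing the data and gave medians of 0.40, 0.20 and 0.59. With the mean of all probe sets, which includes dim ones, Aurka and Bub1 stood at 0.32 and 0.42 in osteogenic over normal medium. Of 348 single-gene values per comparison, 1, 4 and 1 turned sign, none of a value past 0.3. Changing the floor left the differences of these genes as they were, so those settings could not turn a sign. Nor could the mean of all probe sets turn a gene with only 1 probe set. Leaving out _x_at and _s_at could not turn a gene whose brightest probe set has neither ending. A fall to exactly 0 was not counted as a turn, so the counts of turned signs are low partly by construction. Read through the second brightest probe set, Spc25 fell from 0.48 to 0.00 in osteogenic over normal medium while Kif23 rose from 0.24 to 0.51. With DMSO Bub1 fell from 0.38 to 0.00 and Kif22 rose from 0.16 to 0.32. No paired analysis was possible because there was 1 array per medium.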

Other observations

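Regulators of the G1 phase, before DNA synthesis, were more often higher than lower in both comparisons. In osteogenic over normal medium 9 were higher and 4 lower, against 36.3% and 38.5% of all genes. None was lower by 0.3, where few of all genes were (6.73%). With DMSO 10 were higher and 3 lower, against 40.5% and 30.2%. Over 14 genes the median was 0.20 in osteogenic over normal medium and 0.08 with over without DMSO. Ccnd1, cyclin D1, had a log2 signal of 10.16 in osteogenic medium with DMSO, 10.60 in osteogenic medium and 9.93 in normal medium. It was thus higher by 0.67 in osteogenic medium and differed by -0.44 with DMSO. Ccne2, a cyclin of the start of S phase, had 8.40, 7.90 and 7.42 in the same order of media, with differences of 0.49 in both comparisons. Skp2, which marks the inhibitor p27 for breakdown, was higher by 0.59 in osteogenic medium and Cdc25a by 0.29, and E2f1 and Cdc25a were higher by 0.23 and 0.20 with DMSO.

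Genes of cell cycle exit were split in osteogenic medium. Of 13 above the floor, 7 were higher and 4 lower, against 36.3% and 38.5% of all genes, with a median of 0.08. Cdkn1a, the inhibitor p21, had 10.35 in osteogenic medium with DMSO, 10.65 in osteogenic medium and 9.82 in normal medium. In osteogenic over normal medium Cdkn1a, Btg2 and Ccng1 were higher by 0.82, 0.78 and 0.45, while Gadd45a differed by -0.71. With DMSO 1 of the 13 was higher and 8 were lower, against 40.5% and 30.2% of all genes, with a median of -0.04. There Gas1, a membrane protein of resting cells, differed by -0.42, Cdkn1a by -0.30, Ccng1 by -0.27 and Gadd45a by -0.15. Among the 26 DNA replication genes with a promoter window, 4 held TTTGAA (15.4%), near the 13.8% of genes above the floor outside the mitotic set. Of 63 other mitosis genes, 32 did (50.8%).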
